A study of Mus musculus with 12 samples.

Results

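The collagen genes were the rows of the count table whose name has the form Col, a number, a and a number (such as Col1a1), which gave 44 of 21729 genes. They comprised 11 fibrillar collagens, 6 basement membrane collagens (type IV), 9 fibril-associated collagens with interrupted triple helices (FACITs) and 18 genes of other types. Another 7 rows whose names start with Col did not match, among them the galactosyltransferases Colgalt1 and Colgalt2 and the collectins, and were not counted as members.

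The genes were measured in 12 single cultured cardiac progenitor cells (CPCs), which form the only group of samples used here. Hearts came from female FVB mice aged 12 weeks, and the study's methods state that cells of more than 1 heart were pooled. Non-myocytes were depleted of blood lineages and enriched for the receptor c-Kit (CD117) with magnetic beads, then grown as adherent cells for 5 passages on 0.1% porcine gelatin, in medium with serum, leukemia inhibitory factor, basic fibroblast growth factor and epidermal growth factor. Single cells were picked by hand, and full-length cDNA of polyadenylated RNA was made from each. All 12 cells share this strain, sorting and medium, fresh cells were not analysed here, and the labels name no animal or culture. The 12 cells therefore count as 1 sample, the spread between cells is a description, and no test between cells was made.

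Collagens are proteins of the extracellular matrix built from chains that wind into a triple helix. Type I and type III form the fibrils that carry tension in the heart wall, type V sits within those fibrils, and fibroblasts are the main source of all of them. Type IV builds the sheet-like basement membrane around endothelial cells, mural cells and cardiomyocytes, and FACITs bind to the surface of fibrils. Some types, such as I and IV, are mixtures of chains from separate genes, which join in set proportions in the molecule.

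Totals ran from 3453708 to 5690184 counts per cell, and 10022 to 11950 genes had a count. Values are given as CPM (counts scaled to a total of 1000000 in each cell) where a gene is followed across cells. Where genes are compared with each other, they are given as TPM (counts divided by the length of all exons of the gene and then scaled to the same total). Kit, the receptor used for sorting, had no count in 11 cells and 21 counts in CPC10. CPC10 stood apart from the other cells in its endothelial markers: their sum over 11 genes was 10144 CPM in CPC10 and 3.97 to 64.6 CPM in the other 11 cells, with Vwf and Cldn5 at 0 in each cell. Fibroblast markers summed to 179 CPM in CPC10, where 3 of 8 were counted, and to 62.6 to 1295 CPM in the others. In CPC10 this was mostly Pdgfra, at 175 CPM, above the median of the others (65.4 CPM) and inside their range. Of 7 cardiomyocyte markers, 6 had no count in any cell. The other, Tnnt2, was counted in 10 cells, with a highest value of 86.6 CPM in CPC12. Collagen values of CPC10 are therefore also given apart, and results that rest on it are given without it.

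Reference sequence at the starts of 3 sets of genes is shown first, because the genes below move together (Col4a1 with Col4a2) or lie on opposite sides of the other cells in CPC10 (Col3a1 below, Col23a1 above). Sequences are those of RefSeq on GRCm38.p6, which has the coordinates of mm10, and were not read from these FVB cells. Col4a1 and Col4a2 lie head to head on chromosome 8 and their annotated starts overlap by 22 bases, at chr8:11312805-11312826. The first line below reads along Col4a2 (plus strand) and the second is the same stretch along Col4a1 (minus strand). Capitals mark the GC box, GGGCGG on the Col4a2 strand.

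Col4a2 start: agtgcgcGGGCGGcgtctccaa

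Col4a1 start: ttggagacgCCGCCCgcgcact

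The 250 bases before the start of Col3a1 (chr1:45311288-45311537, plus strand) held no CpG dinucleotide and 35.2% G and C. Capitals mark a match to the TATA box, TATAAA, that begins 117 bases before the start. The same length before Col23a1 (chr11:51289670-51289919, plus strand) held 18 CpG and 66% G and C. Capitals there mark a GC box on the opposite strand, 11 bases before the start. Neither stretch overlaps an annotated exon.

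Col3a1: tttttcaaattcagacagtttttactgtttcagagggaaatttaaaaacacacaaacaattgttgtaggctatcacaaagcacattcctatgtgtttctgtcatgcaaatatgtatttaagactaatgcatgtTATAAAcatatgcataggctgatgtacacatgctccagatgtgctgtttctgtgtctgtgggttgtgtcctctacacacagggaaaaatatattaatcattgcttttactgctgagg

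Col23a1: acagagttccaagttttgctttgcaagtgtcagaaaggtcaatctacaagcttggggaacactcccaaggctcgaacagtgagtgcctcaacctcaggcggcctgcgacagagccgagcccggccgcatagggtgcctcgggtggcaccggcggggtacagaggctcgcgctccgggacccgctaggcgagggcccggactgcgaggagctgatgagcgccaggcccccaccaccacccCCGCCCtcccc

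Windows of 300 bases, from 250 before to 50 after the start, were at hand for 35 of the 44 genes (38 windows). They held a median of 11.5 CpG, against 7 over all 32841 windows of the table. The GC box GGGCGG, read on both strands, was found in 23 of the 38 windows and in 35.7% of all windows. CCAAT was found in 13 member windows and 37.4% of all windows, and TATAAA in 5 member windows and 13.6% of all windows. The windows of Col4a1 and Col4a2, which overlap, held 37 and 33 CpG. Both had CCAAT and GGGCGG and neither had TATAAA. A match describes the letters only and was not tested as a binding site. The stretches printed for Col3a1 and Col23a1 do not stand for all genes below or above the other cells in CPC10. Of the genes below, Col16a1 held 24 CpG in its window, as did Col23a1. Col1a2 held 13, Col8a1 12, Col6a1 3 and Col4a6 3, and all of these but Col6a1 had GGGCGG. The relation of these letters to the levels in CPC10 was not tested.

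A count in at least 1 cell was found for 32 of the 44 collagen genes, beside 66.6% of all genes in the table. By type these were 10 of 11 fibrillar genes, 6 of 6 type IV genes, 5 of 9 FACITs and 11 of 18 others. In every cell, 12 of 44 had a count (35.3% of all genes), and the same number had a median of at least 10 CPM (36.3% of all genes). A cell had a median of 20 collagen genes with a count, with a range of 17 to 25 (SD 2.19), and CPC10 had 17. These shares of collagen genes lay within 10 percentage points of the table as a whole.

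The 12 collagen genes without a count in any cell were the fibrillar Col24a1, the FACITs Col9a1, Col9a2, Col19a1 and Col22a1, the type VI chains Col6a4, Col6a5 and Col6a6, and Col26a1, Col10a1, Col13a1 and Col25a1. Col10a1 marks hypertrophic cartilage, and Col13a1 and Col25a1 encode collagens that cross the cell membrane. Col2a1, the main collagen of cartilage, had 3 counts in CPC1 only, and Col8a2 had 1 count in the same cell. A count of 0 allows up to 3 counts, which is 0.527 CPM in CPC12, the deepest library, and 0.869 CPM in CPC1, the shallowest. The reads carry no molecular identifiers, so every limit and interval given here stands for counting error alone.

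Collagen genes took 0.292% of the counts of a cell at the median (mean 0.326% ± 0.224, SD, 12 cells). CPC9 had the lowest share, 0.112%, with an exact 95% binomial interval of 0.109 to 0.115%. CPC12 had the highest, 0.935% (0.927 to 0.943%). CPC10, at 0.334% (0.329 to 0.339%), lay inside the range of the others, whose median was 0.262%. The highest share was 8.37 times the lowest, and without CPC12 it was 4.02 times the lowest and the SD was 0.121. Per length, collagen held a median of 0.0912% of the TPM total, with a range of 0.0400 to 0.316%.

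**Figure D1:**
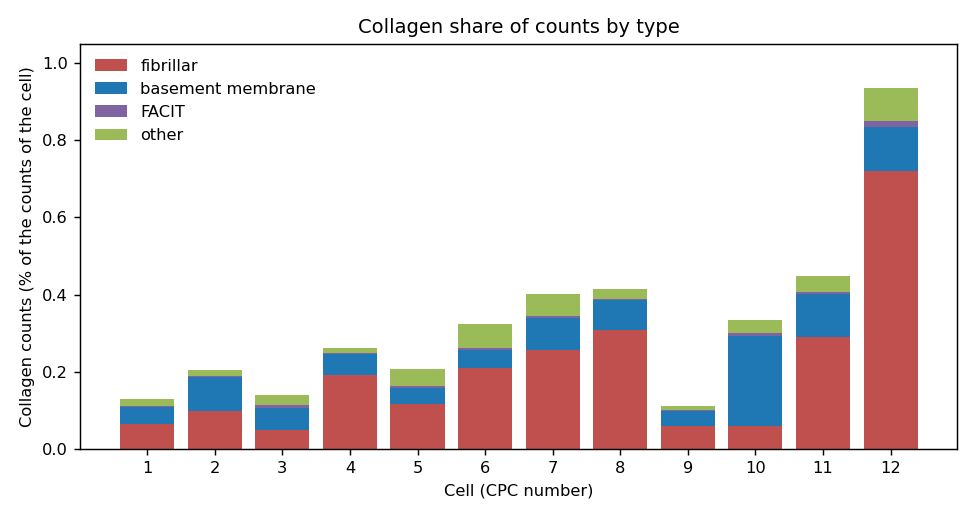
Each bar is 1 cell (CPC number on the horizontal axis), and its height is the percent of the counts of the cell that fell in collagen genes, divided into fibrillar, basement membrane, FACIT and other types. CPC12 reached 0.935%, and basement membrane genes filled most of the bar only in CPC10 (69.9% of its collagen counts).

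Fibrillar genes made up most collagen counts in most cells. They held a median of 60.2% of collagen counts, from 17.3% in CPC10 to 76.9% in CPC12, and the lowest of the other 11 cells was CPC3 with 33.8%. Type IV genes held a median of 23.2%, from 12.3% in CPC12 to 69.9% in CPC10, and the highest of the others was CPC2 with 42.9%. CPC10 was outside the range of the other cells in both shares, which are parts of 1 total, so that a high share of the one lowers the other. In CPM, its type IV sum of 2337 was above the others (380 to 1148), while its fibrillar sum of 579 was inside their range (475 to 7193). FACITs held a median of 1.73%, with the highest value of 6.10% in CPC3, and the other types held a median of 10.5%, with the highest value of 21.0% in CPC5. Col1a2 was the member with the most counts in 10 cells and Col4a1 in CPC3 and CPC10.

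The collagen share was higher in the cells with the largest libraries. Spearman's correlation between share and total count was 0.80 over 12 cells and 0.75 without CPC10, and the correlation with the number of genes detected was -0.69 and -0.63. The 5 cells with the highest totals (CPC7, CPC8, CPC10, CPC11 and CPC12, 5258541 to 5690184 counts) had 10022 to 10181 genes and collagen shares of 0.334 to 0.935%. The other 7 cells (3453708 to 5025517 counts) had 11216 to 11950 genes and shares of 0.112 to 0.322%. Among these 7 the share did not rise steadily with the total. CPC6 (3764196 counts) had their highest share, 0.322%, and CPC9 (4770276 counts) their lowest, 0.112%. The shares of these sets did not overlap, but their edges were close, with 0.334% in CPC10 and 0.322% in CPC6. The totals at the cut, 5258541 and 5025517 counts, were close too. The cut at 5 cells is a choice, and the part of the library size in the collagen share was not tested. Among single genes, Col5a2 alone of the 20 collagen genes whose mean reached 5 CPM was higher in each of the 5 cells (275 to 811 CPM) than in all 7 others (66.3 to 273 CPM). The same was true of 0.298% of the 9725 genes that passed this filter, and no collagen gene lay lower in all 5 (0.586% of all genes did).

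**Figure D2:**
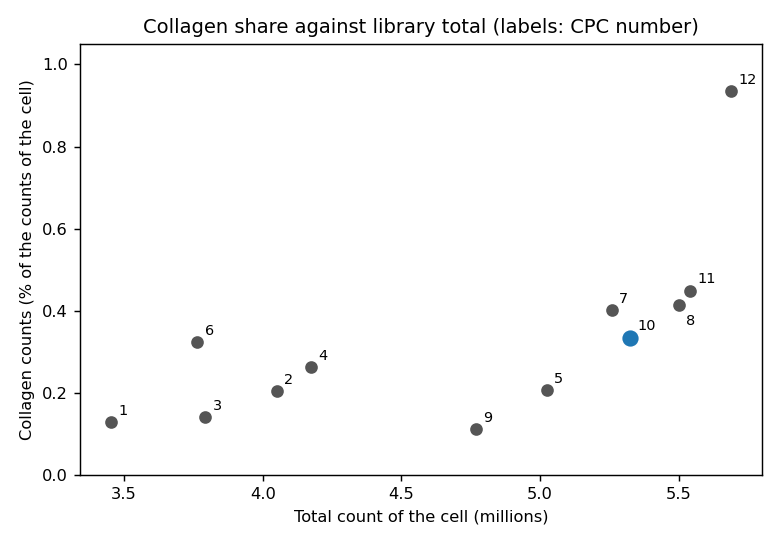
Each point is 1 cell, numbered by its CPC number, with its total count, in units of 1000000, on the horizontal axis and the percent of counts in collagen genes on the vertical axis. The 5 cells with the highest totals, CPC10 (blue) among them, have the highest shares, from 0.334 to 0.935%.

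Among fibrillar genes, Col1a1, Col1a2, Col3a1, Col5a1 and Col5a2 were counted in every cell. Col1a2 (chromosome 6, 4504814 to 4541544), the α2 chain of type I, had a lowest value of 0.376 CPM in CPC10 (2 counts), a median of 690 CPM and a highest value of 3946 CPM in CPC12. The next lowest cell was CPC3 with 22.1 CPM, so that CPC10 and CPC3 stood below the other 10 cells, which had 302 CPM or more. Col1a1 (chromosome 11, 94936224 to 94953042), the α1 chain, had 10.7 CPM in CPC10 (57 counts), 12.9 CPM in CPC3, a median of 167 CPM and 1941 CPM in CPC12. Both chains of type I were thus lowest and highest in the same cells. Col3a1 (chromosome 1, 45311538 to 45349706), whose product forms thin fibrils with type I, ran from 1.13 CPM in CPC10 (6 counts) over a median of 87.0 CPM to 391 CPM in CPC7. CPC3, low in type I, had 231 CPM of Col3a1, more than the median.

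Col5a1 and Col5a2, the main chains of type V, which starts and limits the growth of type I fibrils, did not share the low values of CPC10. Col5a2 (chromosome 1, 45374321 to 45503282) had 66.3 CPM in CPC1, a median of 260 CPM and 811 CPM in CPC12, with 343 CPM in CPC10. Col5a1 (chromosome 2, 27886425 to 28039514) had 28.5 CPM in CPC3, a median of 117 CPM and 246 CPM in CPC12, with 208 CPM in CPC10. Both values of CPC10 lay above the median of the other cells and inside their range. Col11a1, a chain of the cartilage fibril type XI that can also join type V, was counted in 9 cells, with a median of 3.34 CPM, a highest value of 36.9 CPM in CPC7 and 16.0 CPM in CPC10. The remaining fibrillar genes were low: Col5a3 (a further type V chain) reached 10.6 CPM over 6 cells with no count in CPC10, Col27a1 6.08 CPM over 2 cells and Col11a2 1.74 CPM over 3 cells.

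Col4a1 (chromosome 8, 11198423 to 11312826, minus strand) ran from 190 CPM in CPC6 to 686 CPM in CPC12 over the 11 cells other than CPC10, with a median of 294 CPM, and was at 1509 CPM in CPC10. Col4a2 (chromosome 8, 11312805 to 11449287, plus strand) ran from 101 CPM in CPC5 to 379 CPM in CPC12 over those cells, with a median of 233 CPM, and was at 787 CPM in CPC10. These 2 chains make the type IV found in almost all basement membranes, and their sum spanned 3.04-fold between the other 11 cells. Over these cells the sum of all type IV genes spanned 3.02-fold and that of all fibrillar genes 15.1-fold. Without CPC12 as well, these were 2.98-fold and 6.51-fold, and with CPC10 type IV spanned 6.15-fold. Col4a5 and Col4a6, whose products assemble with each other in some basement membranes, lie head to head on the X chromosome with starts 1309 bases apart. Col4a5 (141475385 to 141689234) ran from 8.59 CPM in CPC9 over a median of 50.3 CPM to 128 CPM in CPC11, with 40.4 CPM in CPC10. Col4a6 (141165403 to 141474076) had 1 count in CPC10, at least 0.791 CPM in the others, a median of 15.0 CPM and 57.4 CPM in CPC7. Col4a3 and Col4a4, chains of the kidney filter, were counted in 4 and 8 cells and reached 3.70 and 7.76 CPM.

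Of the FACITs, Col16a1 alone was present in each cell. Col16a1 (chromosome 4, 130047840 to 130099283) had 6.196 CPM in CPC10 (33 counts), 11.9 CPM in the next lowest cell, a median of 30.7 CPM and 142 CPM in CPC12. Col12a1, whose product binds type I fibrils in tissues under load, was counted in 8 cells, with a median of 2.18 CPM and a highest value of 67.5 CPM in CPC3. That cell, low in type I chains, thus had the highest level of this type I partner. Its haematopoietic markers summed to 1622 CPM over 7 genes, of which Cd53 alone gave 1463 CPM, while Cd68, Csf1r and Lyz2 were at 69.1, 59.1 and 30.3 CPM. Ptprc and Cd3e had no count in this cell and Itgam none in any cell. Its fibroblast markers summed to 1295 CPM over 8 genes, mostly Mfap5 (795 CPM), Pdgfra (276 CPM) and Dcn (223 CPM). Both sums were the highest of the 12 cells, and their part in the collagen values was not tested. Col14a1 (chromosome 15, 55307750 to 55520803) had 406 counts in CPC10 and none elsewhere, Col20a1 reached 7.73 CPM over 3 cells and Col9a3 5.13 CPM over 3 cells.

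Genes of the other types differed widely from cell to cell. Col8a1 (chromosome 16, 57624258 to 57754737), a short-chain collagen known from vessel walls and from heart fibroblasts under load, had 7.51 CPM in CPC10 (40 counts), at least 29.0 CPM in the others, a median of 152 CPM and 505 CPM in CPC7. Col6a1 (chromosome 10, 76708792 to 76726168), the α1 chain of the beaded filaments of type VI, had no count in CPC10, at least 9.09 CPM in the others, a median of 32.0 CPM and 203 CPM in CPC12. Its partner chains were patchier: Col6a2 was counted in 9 cells (median 2.37 CPM, highest 92.6 CPM in CPC12) and Col6a3 in 10 cells (median 3.75 CPM, highest 182 CPM in CPC12). CPC10 had no count of Col6a1 and 2 counts of Col6a2, but 288 counts of Col6a3 (54.1 CPM). Col18a1, the source of the fragment endostatin, was counted in all cells and ran from 0.741 over 6.12 to 58.9 CPM in CPC5. Col7a1, which forms anchoring fibrils below epithelia, was counted in 10 cells and reached 11.4 CPM. Col15a1 reached 4.92 CPM over 7 cells, Col17a1 3.45 CPM over 2 cells and Col28a1 1.19 CPM over 2 cells.

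**Figure D3:**
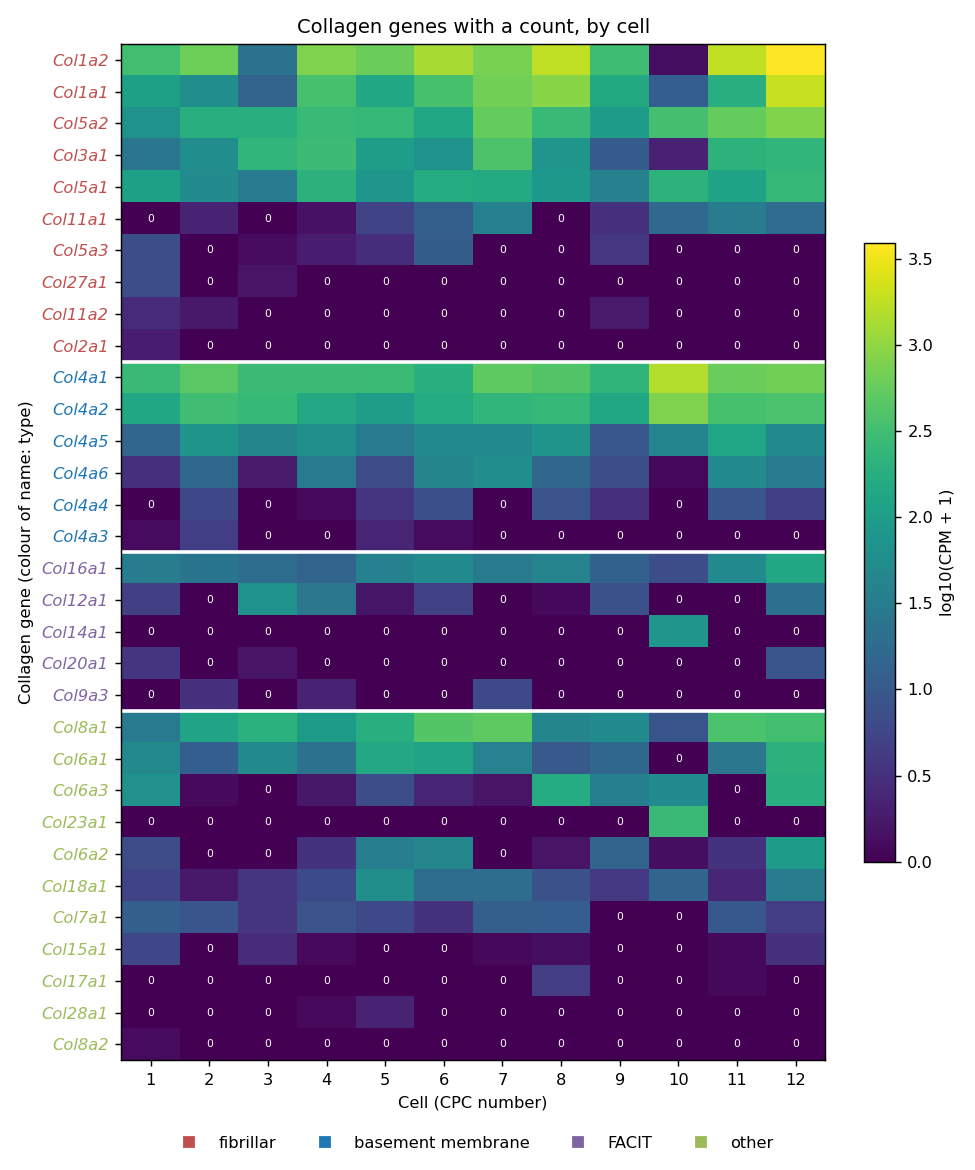
Rows are the 32 collagen genes with a count, grouped by type, columns are the 12 cells, and colour gives log10(CPM + 1). A 0 marks a cell without a count. The column of CPC10 is dark for Col1a2 and Col3a1 (2 and 6 counts) and bright for Col4a1 and Col4a2 (8038 and 4192 counts).

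Per length, the median TPM was 155 for Col1a2, 132 for Col4a1, 98.3 for Col4a2, 75.03 for Col1a1, 73.6 for Col5a2, 53.7 for Col8a1 and 38.2 for Col5a1. Each of these neighbours overlapped the next in its range over cells. Col3a1, Col4a5, Col6a1 and Col16a1 followed at 24.7, 20.9, 20.8 and 12.2 TPM. The length taken for a gene changes the order: by the longest transcript in place of all exons, the medians were 266 TPM for Col1a2, 110.3 TPM for Col4a1, 79.4 TPM for Col5a2, 75.9 TPM for Col4a2 and 61.5 TPM for Col1a1, which places Col5a2 before Col4a2 and Col1a1.

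CPC10 was compared with the range of the other 11 cells. Of the 20 collagen genes whose mean reached 5 CPM, 7 lay below the lowest of the other cells, beside 16% of all 9725 genes that passed. These were Col1a1, Col1a2 and Col3a1 of the fibrillar genes, Col4a6 of type IV, and Col16a1, Col6a1 and Col8a1. Another 4 lay above the highest of the other cells, beside 12.3% of all genes, namely Col4a1, Col4a2, Col14a1 and Col23a1. Col14a1 and Col23a1 passed the filter only through CPC10 and so had to differ, and without them 2 of 18 lay above, a share near that of all genes. The 9 that stayed inside the range included Col5a1, Col5a2 and Col4a5.

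The 7 low genes of CPC10 were low by different amounts. Col1a2 had 2 counts (exact 95% Poisson interval 0.242 to 7.22), where the other cells had a median of 744 CPM. Col3a1 had 6 counts (2.20 to 13.1) and was 87.8-fold below the median of the others (98.9 CPM). Col8a1, with 40 counts (28.6 to 54.5), was 24.0-fold below and Col1a1, with 57 counts (43.2 to 73.9), 17.0-fold below. For Col1a1 the gap to the next cell was small, since CPC3 had 12.9 CPM against 10.7 CPM. Col16a1, with 33 counts (22.7 to 46.3), was 5.23-fold below the median of the others. Col6a1, with no count, was at least 67.5-fold lower than the others' median of 38.0 CPM when 3 counts are allowed in CPC10. Col4a6 had 1 count (0.0253 to 5.57), and its place below the range rests on the 3 counts of CPC3, which cannot be told from it at this depth. The sum of Col1a1, Col1a2 and Col3a1 was 12.2 CPM in CPC10 and 266 to 6118 CPM in the others.

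The high genes of CPC10 were Col4a1 and Col4a2 of type IV, and a pair of genes that no other cell had. The other type IV chains were not high: Col4a5 was inside the range, Col4a6 below it, and Col4a3 and Col4a4 had no count in CPC10. Col4a1 had 8038 counts (7863 to 8216), 5.13-fold over the median of the others, and Col4a2 had 4192 counts (4066 to 4321), 3.38-fold over it. Col23a1 (chromosome 11, 51289920 to 51583918), which encodes a collagen that crosses the cell membrane, had 1421 counts in CPC10 (1348 to 1497), or 267 CPM. Col14a1, whose product binds fibrils and limits their growth, had 406 counts (367 to 447), or 76.2 CPM. With 3 counts allowed in each other cell (0.869 CPM in the shallowest), Col23a1 was at least 307-fold and Col14a1 at least 87.8-fold higher in CPC10. Counted in CPC10 only, with at least 100 counts, were 13 genes of the table (0.0598%), these 2 among them. CPC3 had 6 such genes, CPC7 had 1 and the other cells none. CPC10 is a single cell, its endothelial markers were high as given above, and the part of cell type in its collagen values was not tested.

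**Figure D4:**
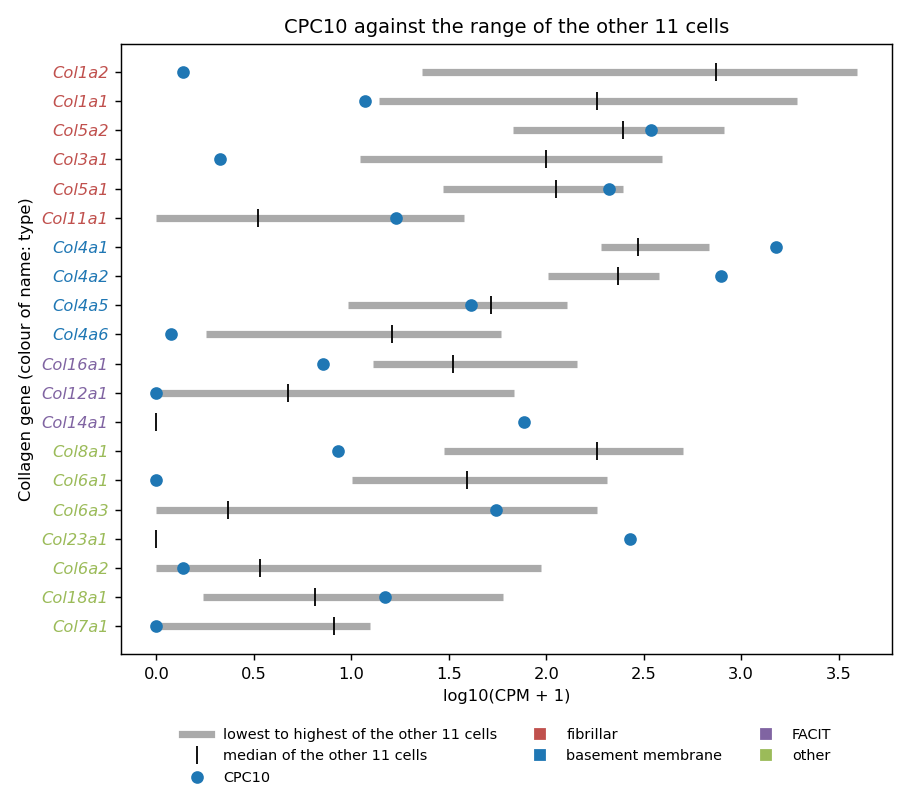
For the 20 collagen genes whose mean reached 5 CPM, the grey bar spans the lowest to the highest of the other 11 cells on the scale log10(CPM + 1), the tick is their median and the blue point is CPC10. Points lie left of the bar for 7 genes and right of it for 4, of which Col14a1 and Col23a1 have no bar because the other cells had no count.

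Chains that assemble into 1 molecule were then compared per length within each cell, using cells with at least 10 counts of both. The ratio of Col4a1 to Col4a2 had a median of 1.56 over 12 cells, with 0.987 in CPC3, 2.48 in CPC5 and 1.70 in CPC10, and was above 1 in 11 cells. The type IV molecule of these chains holds more α1 than α2. The ratio varied 2.52-fold between cells, while Col4a1 itself varied from 190 to 1509 CPM, and CPC10 sat near the middle of the ratios although it had the highest level of both chains. Type I molecules likewise hold more α1 than α2. The ratio of Col1a1 to Col1a2 had a median of 0.845 over 11 cells, from 0.169 in CPC2 to 1.71 in CPC7, a 10.1-fold span, and CPC10 was left out with 57 and 2 counts. Only 2 of 11 cells had a ratio above 1, and by the longest transcript, which gives a median of 0.402, none did.

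Col5a1 over Col5a2 had a median of 0.346, with 0.179 in CPC3, 1.89 in CPC1 and 0.684 in CPC10, a 10.6-fold span over 12 cells. Over the same number of cells the type IV ratio spanned 2.52-fold. Col6a1 over Col6a2 met the count line in 7 cells, with a median of 8.38, from 2.16 in CPC9 to 21.1 in CPC11, and the median was 4.74 with at least 50 counts of both and 5.28 by the longest transcript. The cells left out lay mostly on the high side, so this range has no upper end. CPC2, CPC3 and CPC7 had 44, 195 and 200 counts of Col6a1 and none of Col6a2, which puts their ratios at 27.9, 124 and 127 or more when 3 counts are allowed, and CPC8 had 50 and 3 counts. CPC10 had 0 and 2 counts. On the log2 scale the SD over the cells used was 0.36 for the type IV pair, 1.04 for type I and 1.01 for type V. Type VIII gave no ratio, since Col8a2 had 1 count in all.

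**Figure D5:**
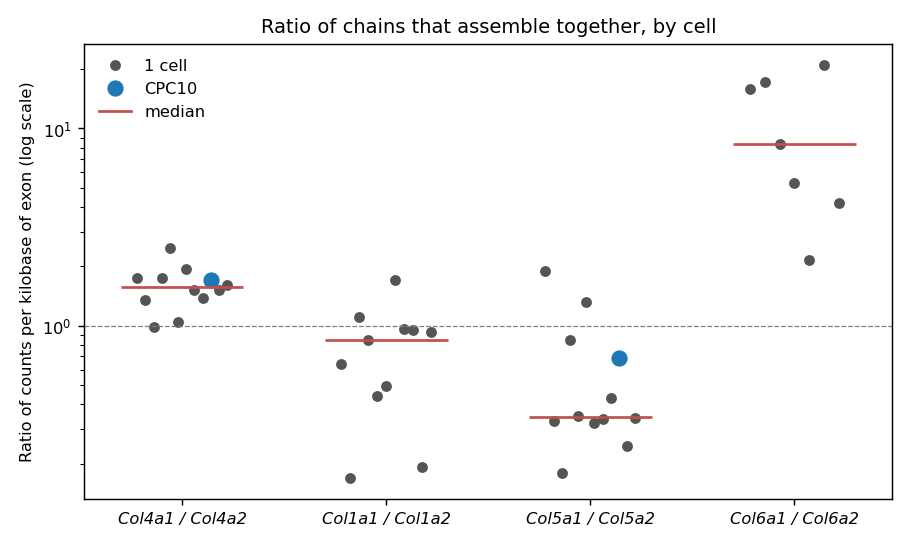
Each point is the ratio of 2 chains in 1 cell, as counts per kilobase of exon on a log scale, CPC10 is blue, the red line is the median and the dashed line marks equal levels. Cells with under 10 counts of a chain are not drawn (1 cell for type I and 5 for type VI). The 12 type IV ratios stay between 0.987 and 2.48, and the 12 type V ratios between 0.179 and 1.89.

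Full sets of chains at 10 CPM or more were found in some types only. The main chains of type V (Col5a1 and Col5a2) and of type IV (Col4a1 and Col4a2) reached this level in 12 of 12 cells, and both chains of type I in 11, all but CPC10. All 3 main chains of type VI reached it in 2 cells, CPC9 and CPC12, though each of the 12 cells had at least 1 of them. No cell had both chains of type VIII, of which 11 cells had Col8a1 alone.

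Levels of collagen genes were on the whole weakly correlated across cells, with closer relations among fibrillar genes and between Col4a1 and Col4a2. Over 12 cells the median Spearman correlation was 0.22 for the 190 pairs of the 20 collagen genes and 0.02 for all gene pairs. Without CPC10 it was 0.33 for the 153 pairs of the 18 genes that remain. The 15 pairs of fibrillar genes had a median of 0.52. Spearman's correlation was 0.84 for Col1a1 with Col1a2 (0.79 without CPC10) and 0.83 for Col4a1 with Col4a2 (0.77 without CPC10), and 0.148% and 0.198% of all gene pairs reached these values over 12 cells (0.515% and 0.676% without CPC10). Chains from different molecules could be as close: Col5a2 and Col4a1, chosen after the values were seen, had a Spearman correlation of 0.87 (0.89 without CPC10). Both genes of a pair share the library of each cell and its depth, so these are descriptions over 12 points with no test.

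Most collagen genes spread more between cells than is usual for genes of their level. Variation was the log10 squared coefficient of variation in CPM, less a running median over genes of like mean, so that a value of 0 is usual for the level. The median of the 20 collagen genes was 0.69, and 0.55 when CPC3 and CPC10 were left out. Of the 20, 19 lay above 0 (49.8% of 9725 genes) and 18 above the upper quartile of 0.22 (25% of genes). Both tallies include Col23a1 (1.52) and Col14a1 (1.12), which passed the filter only through CPC10 and so had to vary. Without CPC10 both drop out, and the median of the collagen genes that passed was 0.63. With CPC10, Col23a1 and Col14a1 were among the 3 highest, with Col1a1 at 1.19. Col6a3 had 0.94 and Col1a2 0.90, while Col4a5 (0.13) and Col7a1 (-0.27) were the lowest.

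The cell with the most collagen was also the cell in which many members peaked. CPC12 had the highest value of 8 of the 20 genes, namely Col1a1, Col1a2, Col5a1, Col5a2, Col6a1, Col6a2, Col6a3 and Col16a1. CPC7 followed with 5 (Col3a1, Col11a1, Col7a1, Col8a1 and Col4a6), CPC10 with 4, and CPC3, CPC5 and CPC11 with 1 each. CPC11, with the highest Col4a5, also had the highest sum of mural and smooth muscle markers (3791 CPM over 8 genes), of which Acta2 alone gave 3668 CPM. Mcam was at 53.8 CPM and Tagln at 11.2 CPM there, Pdgfrb was counted in all 12 cells, and Myh11 and Rgs5 were each counted only in another cell. CPC12 itself had the highest sum of cardiomyocyte markers (86.6 CPM over 7 genes), all of it Tnnt2. The part of such markers in the collagen values of CPC11 and CPC12 was not tested.

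Collagen chains need enzymes and chaperones before and after secretion, and 41 such genes were followed as a list. Of these, 38 had a count in some cell and 28 in all 12. P3h2, Colgalt2 and Adamts3 had none. In CPC10, 8 of the 32 genes whose mean reached 5 CPM lay below the range of the other cells and 8 above it, beside 16% and 12.3% of all genes. Of the genes that passed this filter, 0 of 12 for hydroxylation lay below and 2 above, and 0 of 6 for glycosylation, chaperoning and export lay below and 4 above. For propeptide cleavage the numbers were 2 below and 1 above of 5, for cross-linking 3 and 1 of 5, and for uptake and receptors 3 and 0 of 4. Differences between these steps were not tested, and the counts are of a single cell.

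Genes that act inside the cell were inside or above the range of the others in CPC10. P4hb, the shared subunit of the prolyl 4-hydroxylases, had 508 CPM in CPC5, a median of 1287 CPM, 3490 CPM in CPC12 and 1882 CPM in CPC10. Serpinh1, the collagen chaperone HSP47, had a median of 511 CPM and was highest in CPC10, at 1542 CPM, with at most 1299 CPM in the others. Creb3l1, a transcription factor of the secretory pathway known to act on type I collagen in bone, had 291 CPM in CPC10 and at most 63.1 CPM in the others. P4ha3, another prolyl hydroxylase subunit, had 289 CPM in CPC10 and at most 162 CPM in the others. Colgalt1, P3h3 and Mia3, for sugar transfer, 3-hydroxylation and export of collagen, were also above the range (254, 107 and 133 CPM against at most 223, 90.6 and 89.8 CPM). Crtap, P4ha1, Plod3, Ppib and Fkbp10, with medians of 320, 371, 105, 117 and 168 CPM, were inside the range in CPC10.

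Genes that act on secreted collagen lay on both sides of the range, or inside it, in CPC10. Lox, the lysyl oxidase that cross-links fibrils, had 66.7 CPM in CPC10, at least 77.02 CPM in the others, a median of 417 CPM and 1824 CPM in CPC12. Loxl1, of the same family, had no count in CPC10 and 86.5 to 430 CPM in the others. Loxl4 likewise had no count in CPC10 but was low elsewhere too (median 11.2 CPM), and Loxl2, the family member known to act on type IV, was above the range at 44.7 CPM against at most 18.6 CPM. Pcolce2, which enhances the cleavage of propeptides, had no count in CPC10 and 15.0 to 256 CPM in the others, while Pcolce had 155 CPM in CPC10, within their range of 148 to 924 CPM. Bmp1, the propeptide protease itself, had 372 CPM in CPC10 and at most 218 CPM in the others, and its relative Tll1 had 10.3 CPM against at least 23.2 CPM. The collagen receptors Ddr1 and Ddr2 and the uptake receptor Mrc2 were below the range in CPC10, with 9.20, 30.4 and 12.96 CPM against at least 13.1, 93.9 and 21.6 CPM.

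Across cells, several of these genes followed the summed fibrillar CPM. Spearman's correlation with that sum over 12 cells was 0.83 for Lox, 0.81 for Loxl1, 0.80 for Mrc2 and 0.76 for Pcolce. It was 0.74 for Adamts2 and 0.69 for P4ha1. These genes were picked as the highest of the 32 whose mean reached 5 CPM, and had 0.68 to 0.80 without CPC10. At the other end, Ctsk had -0.49 (-0.36 without CPC10), and Mia3, Mia2, Loxl2, Bmp1 and P3h3 were also below 0 over 12 cells. Serpinh1, high in CPC10, had 0.44 with that cell and 0.78 without it. The median over the listed genes was 0.31 (0.38 without CPC10), against 0.01 (-0.04) over the 9705 genes that are left of all those with a mean of 5 CPM when the collagen genes are taken out, the listed genes included. The fibrillar sum itself had a Spearman correlation of 0.59 with the total count of the cell (0.75 without CPC10), and the part of library size in these relations was not tested.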

How the data were processed

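Messenger RNA of 12 single cultured CPCs was profiled with the Smart-Seq v4 and Nextera XT kits and paired reads. The authors aligned reads to mm10 with STAR 2.5.2b, kept uniquely mapped reads, and deposited raw read counts per gene and cell, without normalization. The counting program, its annotation and its strand rule are not given in the sources used here. Among the collagen genes named with coordinates, Col3a1, Col5a1, Col4a1 and Col4a2 share at most 1.44% of exon bases with another gene.

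From the counts, CPM used the total of each cell (3453708 to 5690184). Exon lengths and coordinates came from GENCODE vM21 (98.4% of 21729 symbols and all 44 collagen genes matched). Detection was at least 1 count, and the comparison of CPC10 and the variation used genes whose mean reached 5 CPM. Intervals were exact at the 95% level. The named collagen genes were those with a median of at least 10 CPM or outside the range of the other 11 cells in CPC10. The named processing genes were those with a median of at least 100 CPM or outside that range. The rest were given by counts and highest values. Some processing genes, such as Adamts2, were named only for having no count or for their correlation with the fibrillar sum. Members and lists were chosen with earlier results of these data known. Alternatives changed thresholds, scalings and lengths, or dropped 1 cell at a time. No doublet caller was run on these hand-picked cells. As a check for a library deposited more than once only, chi-square over degrees of freedom was computed for the 66 pairs of libraries and was 48.5 or more. Calculations were tested on simulated data. They ran in Python 3.11.15 with matplotlib 3.10.9, pandas 2.3.3, numpy 2.4.6 and scipy 1.17.1.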

Additional observations from a re-analysis of the deposited data

How the results depend on the processing

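The 14 summary results were recomputed under alternatives that gave 52 values, of which 47 stayed within 1 SD over cells (over genes for the variation) or within 1.5 times for counts. The detection line moved 4 of the others: the median number of collagen genes per cell was 17 with a line at 5 counts, 17 with a line at 1 CPM and 13 with a line at 10 CPM, and 21 genes reached 10 CPM in any cell. Per kilobase, the collagen share was 0.0912% in place of 0.292%. By the longest transcript, the median of Col1a1 over Col1a2 was 0.402 and that of Col6a1 over Col6a2 was 5.28, and with at least 50 counts of both chains the latter was 4.74. These shifts stayed within 1 SD because the SD over cells was wide. It was 0.224 for the collagen share, 0.446 for Col1a1 over Col1a2 and 7.38 for Col6a1 over Col6a2. The 47 values that stayed thus include large shifts. The excess variation was 2.25 on the variance of log2(CPM + 1), a different scale whose size cannot be set beside 0.69. Leaving out each cell in turn gave 30 to 32 genes detected, collagen shares of 0.262 to 0.322%, fibrillar shares of 56.7 to 63.7%, type IV shares of 21.2 to 25.2%, 7 to 8 genes below and 4 to 5 above the other cells in CPC10, ratios of Col4a1 to Col4a2 of 1.53 to 1.60, and an excess variation of 0.63 to 0.74. The comparison of CPC10 has no value without that cell. Leaving out CPC12 from the spans, or CPC3 and CPC10 together, was chosen after the data were seen, and the latter gave a fibrillar share of 64.0% and a type IV share of 20.9%. No paired analysis was possible because there is 1 group. Depth limits genes near 1 CPM, where 0 counts cannot be told from 3.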
